A study of Sus scrofa with 15 samples.

Results

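The genes described here encode the proteins of the cytosolic ribosome of the pig (Sus scrofa). They were taken from the table of normalized values by symbol, as every gene named RPL or RPS followed by a number, together with RPLP0 to RPLP2 and RPSA, without the kinases of the RPS6K family and without binding proteins. This gave 84 genes out of 43294 features, 52 of the large (60S) and 32 of the small (40S) subunit. They carry 83 symbols, because RPL18 is entered at 2 places. RPL41, RPL39L and the Y-linked RPS4Y were not analysed here.

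The study compared 5 groups of 3 libraries each. PFF are primary porcine fetal fibroblasts at passage 2 to 5, the donor cells whose nuclei were transferred. SCNT4c and SCNT8c are untreated embryos made by somatic cell nuclear transfer and collected at the 4-cell and 8-cell stage, each library a pool of 30 embryos. SCNT4c-KG embryos were injected 5 h after activation with 1000 ng/µl mRNA of KDM4A, which removes methyl groups from lysine 9 of histone H3. They were also cultured until 48 h in 0.1 µM GSK126, an inhibitor of EZH2, which methylates lysine 27 of histone H3. SCNT4c-TDG embryos were made from fibroblasts that had been transfected with a doxycycline-inducible vector for the DNA glycosylase TDG and selected, and they received 500 ng/ml doxycycline from 40 to 72 h. SCNT4c carried neither vector nor doxycycline, so the effects of TDG, of the vector line and of the drug cannot be told apart. In the same way, as SCNT4c was untreated, the effects of KDM4A, of GSK126 and of the injection itself in SCNT4c-KG cannot be told apart. The methods say in general that experiments were repeated, but no source says which cultures or days the libraries of a group came from, so the p-values measure the spread between these libraries, which may be partly technical. The 3 untreated 4-cell libraries are numbered in conflicting ways in the labels and are called a, b and c. The description labels of the SCNT4c-KG samples resemble the names of the untreated columns, and these samples were assigned by their titles, which match the columns named for KG.

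As background, each ribosomal subunit is built in the nucleolus from ribosomal RNA and nearly equal amounts of its proteins. The mRNAs of these proteins are short and abundant, and most begin with a C followed by a run of pyrimidines, the 5′ terminal oligopyrimidine (TOP) tract, through which the kinase mTOR and the RNA-binding protein LARP1 control their translation and stability. The early embryo lives on ribosomes and mRNAs stored in the oocyte, and in the pig the main wave of transcription from the embryonic genome comes at the 4-cell stage. Several ribosomal proteins have a second gene, or paralog, and the product of some of these paralogs can replace the parent protein.

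The start sites of these mRNAs were read from the Sscrofa11.1 assembly (RefSeq annotation), 15 bases before and 15 bases from the annotated first base. A tract was counted where a C followed by at least 4 pyrimidines began within 10 bases of that first base. By this rule 43 of 84 members (51.2%) and 6105 of 20587 other protein-coding genes (29.7%) had a tract. Among genes whose transcript record is curated, the shares were 64.4% of 45 members and 30.3% of 3943 others. The windows below show some members with strong changes between the groups and some parents beside their paralogs. They are on the strand of the gene, with the tract in capitals.
RPL38, chr12:6889880-6889909, minus strand: cggaagcggaagtCCCTTCCTTTTCCgttc
RPLP2, chr2:507876-507905, plus strand: cccccgcgccggcgtCTTCCTTTCTgtccc
RPS20, chr4:75762194-75762223, plus strand: aggcctcacgCCTTCCTCTTTgaagaagac
RPL26, chr12:53553439-53553468, minus strand: gacgactgtggttCTCTTCCCTTTTgcggc
RPL26L1, chr16:51276678-51276707, minus strand: ggaagcctcaCTTCCggccctgagcagcgc
RPL10, chrX:124927234-124927263, plus strand: caggcgtgggagcgCCTCTTTTCCTTCggc
RPL10L, chr1:176604102-176604131, minus strand: cgatcagcggcccacaggagaataaacccc
RPL7, chr4:62602415-62602444, plus strand: cgcatgcgctaaCTTCCTCTTTCCCggctg
RPL7L1, chr7:37940534-37940563, plus strand: cggaagtcggtgggaagcgtttcctcgttt
RPS27, chr4:95699433-95699462, minus strand: atttccgccttcgCTCCTTTCCggcggtga
RPS27L, chr1:108881315-108881344, plus strand: ggctccctacccgccatacaccagttgagc
The 4 parents shown have tracts of 9 to 13 bases. RPL10L, RPL7L1 and RPS27L have none that begins within 10 bases of the annotated first base, and RPL26L1 has a C followed by just 4 pyrimidines. The pairs not shown differ from this: RPL3, RPL3L, RPL36A and RPL36AL have none, and RPL22 and RPL22L1 have tracts of 10 and 6 bases. Of other members with strong changes, RPL31 and RPL39 have tracts of 11 and 5 bases, and RPS29 and RPL19 have none. RPL10L has 1 exon in the annotation against 6 in RPL10. RPS27L does hold a C followed by a run of pyrimidines farther upstream in its window, outside that range. A missing tract says only that the rule found none within this range, and model transcripts may start at another base.

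The values are reads per gene divided by one factor per library, and in every library each one corresponded to a whole number of reads, within 0.02 reads. The recovered reads ran from 12354649 to 15390472 in SCNT4c-KG and from 17757929 to 22868038 in the other groups. A feature was tested with limma when its mean was at least 10 in the libraries of the fit, and a change was called at an adjusted p below 0.05 (Benjamini-Hochberg over all features) together with more than a 2-fold difference. Of the 84 members, 75 passed the filter in the fit of the 12 embryo libraries, 46 of the large and 29 of the small subunit, and 5 of them had a mean below 10 in SCNT4c itself. RPL11, RPL27, RPS23 and the second entry of RPL18 are listed at 0 in all 15 libraries, and RPLP0, RPL13A and RPS9 are near 0, although every cell makes these proteins. At the locus of 21 members the table also holds an assembled transcript without a gene name, and 14 of these 21 had a mean value under 1000 over all libraries, against 3 of the other 63. Their levels are therefore read with caution below, and adding the assembled transcripts to their genes moved RPL27 from 0 to a mean of 4825 in SCNT4c-KG but left RPLP0 at 1.69.

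The ribosomal protein genes took a small share of the untreated 4-cell libraries and a large share of the SCNT4c-KG libraries. Their summed value was 0.656%, 1.03% and 1.05% of the library in SCNT4c a, b and c. In SCNT4c-KG it was 7.63%, 8.54% and 7.34%. The SCNT4c-TDG libraries held 2.73%, 2.57% and 2.42%. The order of these groups is clear, since no library of one overlaps another: the mean was 8.60-fold higher in SCNT4c-KG and 2.82-fold higher in SCNT4c-TDG than in SCNT4c. The SCNT8c libraries held 2.14%, 2.56% and 0.917%, so that replicate 3 lay at the level of SCNT4c and the others near SCNT4c-TDG. In PFF the share was 3.89%, 3.65% and 4.33%, which is 3.96% ± 0.344 (SD, n = 3) against 7.84% ± 0.624 in SCNT4c-KG. With 3 against 3 libraries no exact permutation p can go below 0.1, so no p is given for these shares. In pools of whole embryos, fewer cells with a transcript and less of it per cell cannot be told apart.

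**Figure D1:**
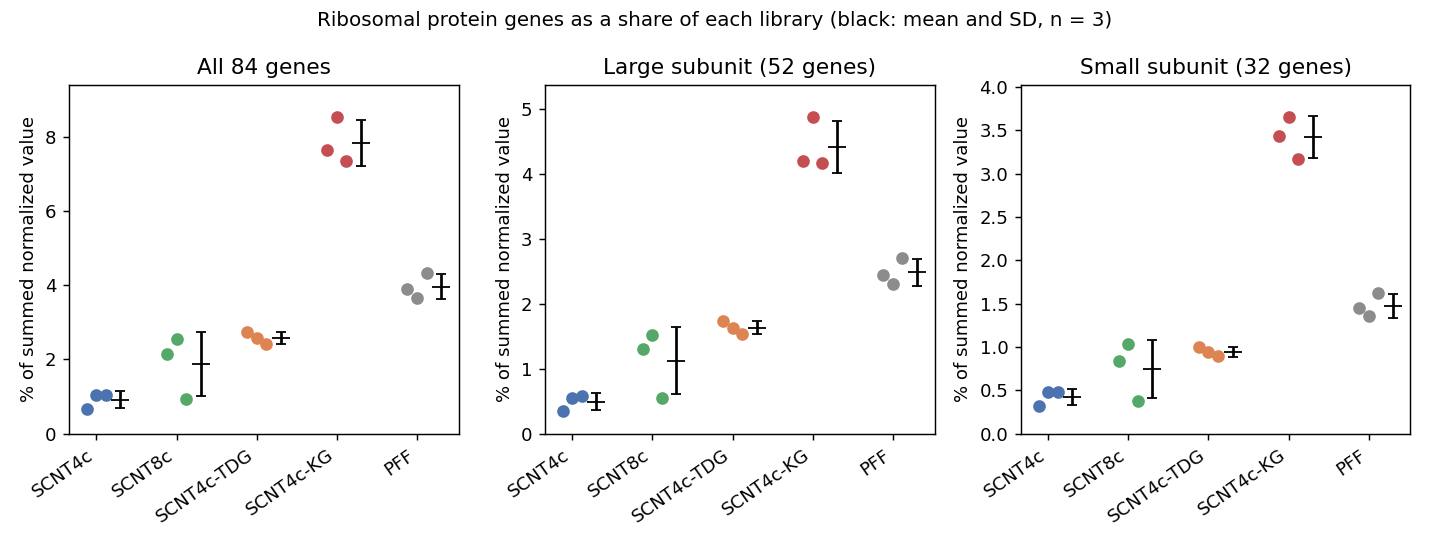
Summed normalized value of the ribosomal protein genes as a percentage of each library, for all 84 genes, the large and the small subunit; each coloured point is 1 library and the black mark is the mean with its SD. The 3 SCNT4c-KG points lie at 7.34% to 8.54% for all genes, above every other library, and SCNT8c replicate 3 lies with SCNT4c.

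Both subunits shared this order, but not in equal parts. The ratio of the large to the small subunit in summed value was 1.16 ± 0.0548 (SD, n = 3) in SCNT4c, 1.29 ± 0.0605 in SCNT4c-KG, 1.49 ± 0.0674 in SCNT8c, 1.73 ± 0.00579 in SCNT4c-TDG and 1.69 ± 0.0155 in PFF. One gene bears on the ratio in SCNT4c-KG: RPS20 alone took 0.845% ± 0.119 of those libraries. The share of genes encoded by the mitochondrial genome also differed, at 1.21% ± 0.261 in SCNT4c and 8.70% ± 0.629 in SCNT4c-TDG, and without these genes in the total the ribosomal protein share of SCNT4c-TDG was 2.82% instead of 2.57%.

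**Figure D2:**
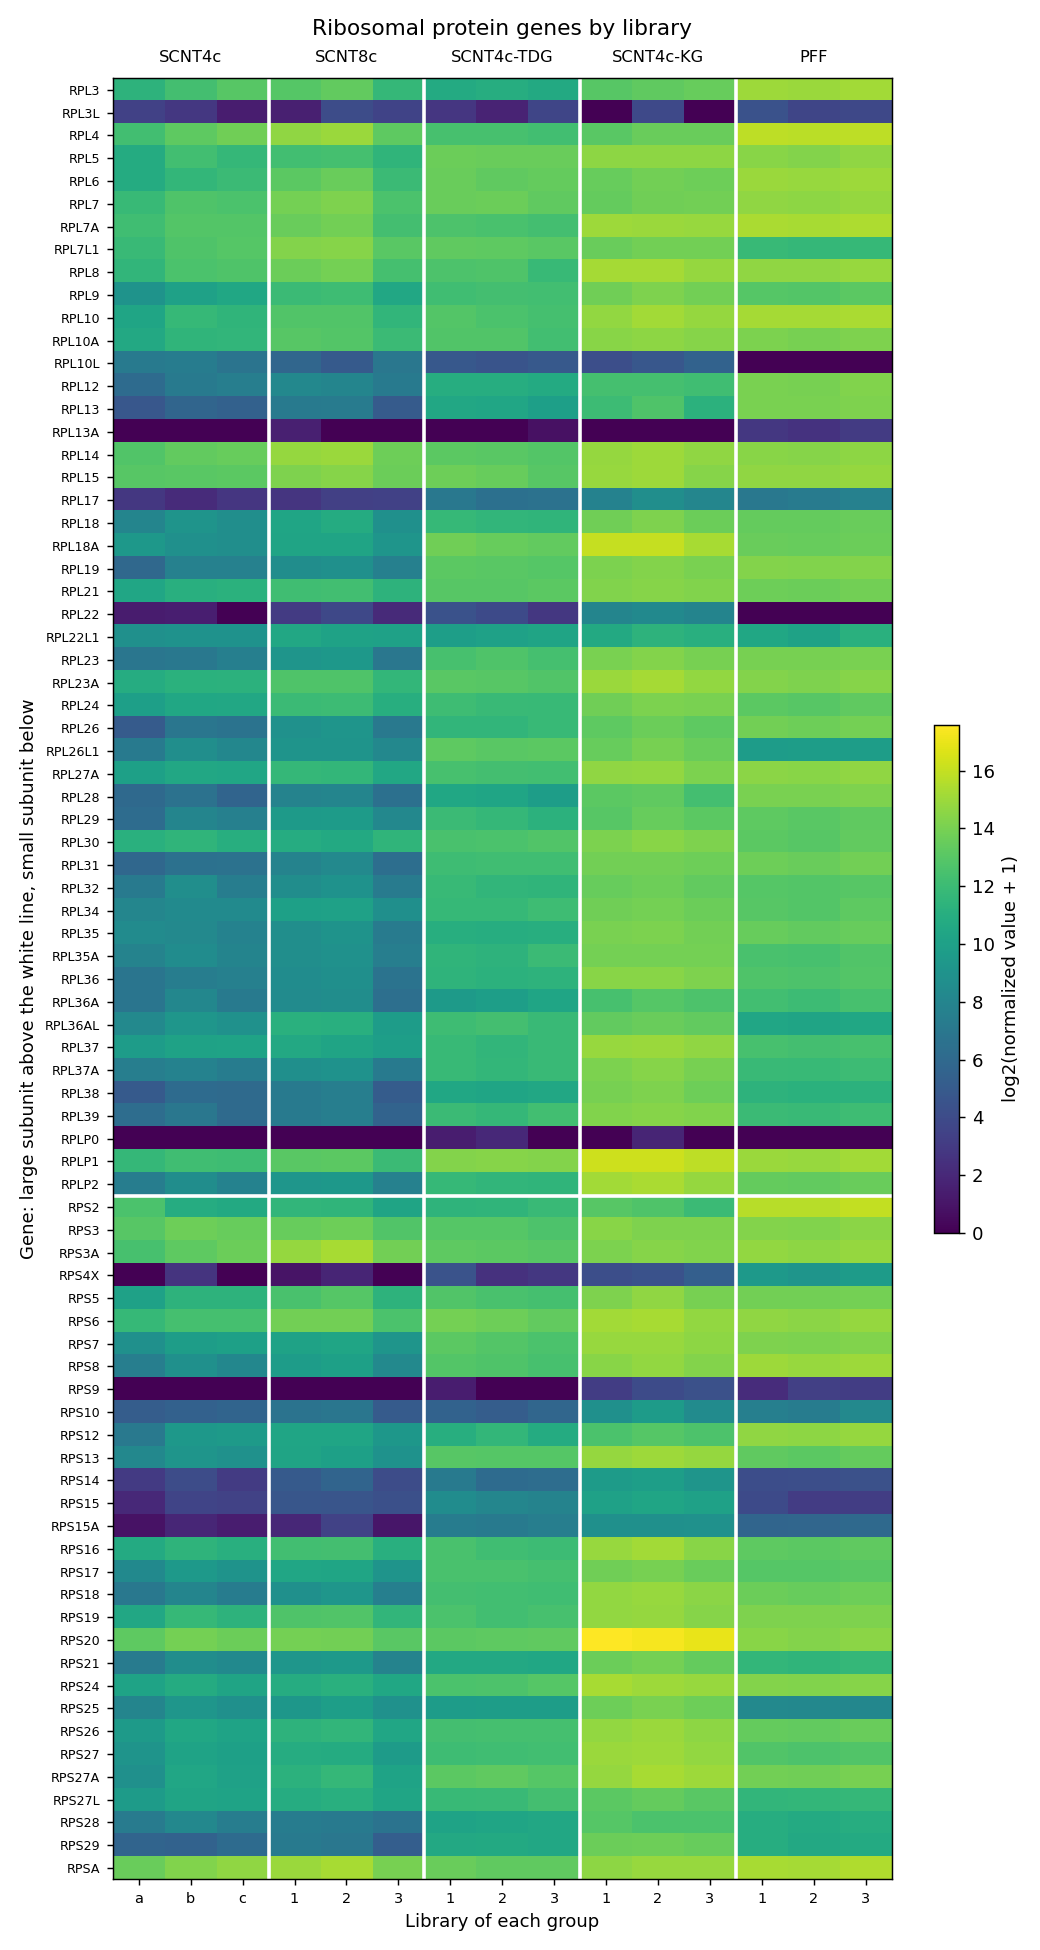
Normalized value of ribosomal protein genes that were above 0 in any library, as log2(value + 1), with 1 column for each library and 1 row for each gene. Most rows are darker (lower) in SCNT4c and SCNT8c than in SCNT4c-KG, while RPS20, RPSA and RPL14 are high in every group and RPLP0, RPL13A and RPS9 are low in every group.

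The SCNT4c-KG embryos were compared with untreated 4-cell embryos to ask which of these genes differed. Of 75 members tested, 68 rose and 1 fell, where 17.6% of all 18942 features rose and 19.6% fell. RPL17, RPL22, RPS15 and RPS15A are counted among the rises here and in SCNT4c-TDG. Their means in SCNT4c were below 10, at 5.21, 1.11, 8.16 and 1.69, so they passed the filter through groups where they are higher. By subunit, 43 of 46 large subunit genes and 25 of 29 small subunit genes rose. The median log2 fold change was 4.81 over the members and -0.30 over all features. The libraries of both groups did not overlap for 72 members, as for 53.9% of all features. RPL3, RPL4, RPSA, RPS2 and RPS3 were among those that did not pass.

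The largest rise was that of RPL38 (chr12:6884899-6889966), a small large-subunit protein that mouse embryos need to translate Hox mRNAs. Untreated libraries a, b and c had values of 30.0, 69.0 and 67.3, and the SCNT4c-KG libraries 15798, 18469 and 13516. The groups were far apart, 287-fold in their means (log2 fold change 8.22, SE 0.52, adjusted p 3.52e-08). RPL39 (chrX:98178148-98181439), which lines the tunnel through which the new peptide leaves, had values of 75.7, 124 and 67.3 in untreated embryos and of 19839, 21063 and 18969 after KG treatment. This is 224-fold in the means, with a log2 fold change of 7.84 (SE 0.43, adjusted p 1.22e-08). RPS29 (chr1:179454923-179456847), a zinc-binding protein of the small subunit, had 48.9, 45.4 and 71.4 in untreated embryos against 12578, 13174 and 11324. RPL31 (chr3:53289993-53295387), another protein near the tunnel exit, had 56.8, 94.4 and 98.0 against 14462, 14828 and 13298. All 6 libraries of each pair were on their own side, and the log2 fold changes were 7.81 (SE 0.44) and 7.44 (SE 0.42). RPS15A, with a log2 fold change of 7.47 (SE 0.72), rests on 1, 3 and 2 untreated reads against 277, 360 and 326. With the 2 assembled transcripts of its locus added, the log2 fold change of RPS15A was 1.32 (SE 0.41). RPL17, also counted among the rises, rests on 8, 4 and 7 reads in SCNT4c, and its log2 fold change of 5.59 (SE 0.62) was 0.19 (SE 0.53, adjusted p 0.801) with the assembled transcript of its locus added.

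**Figure D3:**
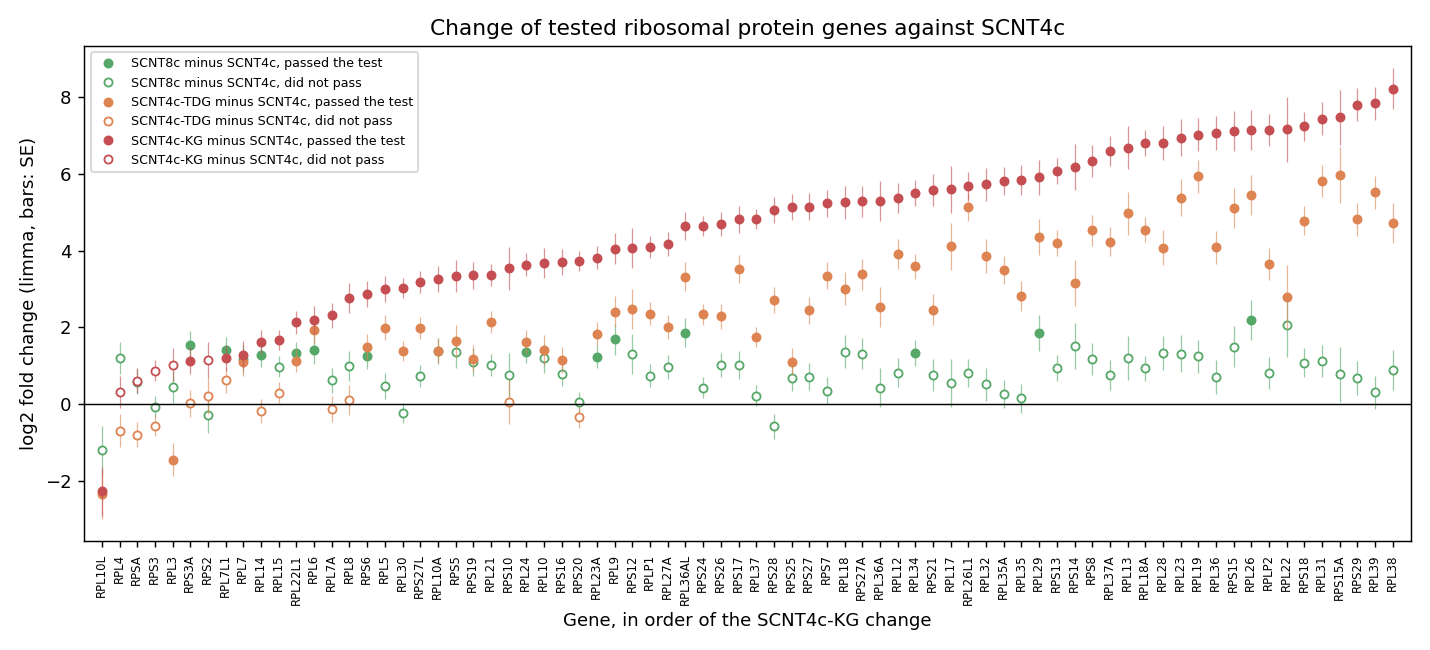
log2 fold change against SCNT4c, with its SE, for ribosomal protein genes that were tested, in order of the SCNT4c-KG change; filled points passed the test and open points did not. The SCNT4c-KG points rise from RPL10L at -2.27 to RPL38 at 8.22, the SCNT4c-TDG points lie below them for all genes drawn, for RPL10L by less than the SE, and most SCNT8c points are open.

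Of the genes chosen by role, RPL5, RPL10, RPLP1, RPLP2, RPS6, RPS19 and RPS27A rose, RPSA did not pass, and RPL11, RPL13A and RPLP0 were at or near 0 and not tested. RPS27A (chr3:85989609-85992257), whose protein is made as a fusion with ubiquitin, rose from 450.4, 1326 and 1047 to 28408, 39984 and 32617 (log2 fold change 5.28, SE 0.41). RPLP2 (chr2:507891-509818), an acidic protein of the stalk that recruits elongation factors, rose from 176, 389 and 218 to 35780.5, 42411 and 27776 (log2 fold change 7.14, SE 0.41). RPL5 (chr4:124359786-124367612), which carries 5S ribosomal RNA and binds MDM2 together with RPL11, rose from 1805, 4901 and 3281 to 24289, 24908 and 24510.3 (log2 fold change 2.998, SE 0.33). These rises differ in size, and RPL5, with the highest values of the 3 in SCNT4c, had the smallest. RPS6 (chr1:203444360-203447643), the substrate of the S6 kinases downstream of mTOR, rose by a log2 fold change of 2.87 (SE 0.33). RPLP1 (chr1:167296084-167298264), the partner of RPLP2 in the stalk, had 3306, 4599 and 4338 in untreated embryos and 75749, 76202 and 57729.8 after KG treatment (log2 fold change 4.10, SE 0.29). RPS19 (chr6:50003198-50010135), the gene most often mutated in Diamond-Blackfan anaemia, had 1519.9, 3583 and 2663 against 26523, 27898 and 20986 (log2 fold change 3.35, SE 0.36). In both genes all treated libraries were above all untreated ones.

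Of the genes named as not passing, RPSA, RPS3, RPL4 and RPL3 ranked 2, 5, 8 and 12 per kb of exon in SCNT4c, and RPS2 ranked 42. RPS20, RPS3A and RPL14 also ranked high there but rose. RPSA (chr13:24072551-24081536), also known as the laminin receptor, had 12357, 19225 and 26174 without and 24699, 29602 and 30043 with treatment. The groups overlapped, and the log2 fold change was 0.61 (SE 0.33, adjusted p 0.155). RPS3 (chr9:9612939-9630404), which sits where mRNA enters the ribosome, had 8266, 13173 and 11779.8 against 22758, 18411 and 18905, with a log2 fold change of 0.88 (SE 0.27, adjusted p 0.0207), under the required fold of 2. Per kb of exon, RPS20, RPSA, RPS3A, RPL14 and RPS3 were the 5 highest members in SCNT4c, at means of 24214, 19024, 10847, 9064 and 7864. The lowest were 7 members tied at 0 there, the entries at 0 throughout together with RPL13A, RPLP0 and RPS9, whose highest group means were 6.12 in PFF, 1.58 in SCNT4c-TDG and 14.4 in SCNT4c-KG.

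RPL10L (chr1:176603177-176604116) went the other way. It is an intronless copy of the X-linked RPL10 that male mice need for meiosis. Its value was 148, 165 and 109.6 in SCNT4c, 18.0, 26.6 and 45.6 in SCNT4c-KG and 27.6, 23.0 and 29.1 in SCNT4c-TDG. All 6 treated libraries lay below all 3 untreated ones, with log2 fold changes of -2.27 (SE 0.64, adjusted p 0.0119) and -2.35 (SE 0.64, adjusted p 0.0107). RPL10 itself rose from 1304, 3441 and 2859 in untreated embryos to 27044, 35708 and 27922 in SCNT4c-KG.

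The SCNT4c-TDG embryos were compared with the same 3 untreated 4-cell libraries, so both comparisons share their controls. Of 75 members, 60 rose and 2 fell, against 15.7% and 17.6% of all features. These were 38 large and 22 small subunit genes that rose, and the median log2 fold change was 2.45 over the members and -0.26 over all features. The libraries did not overlap for 66 members, as for 58.4% of all features. Beside RPS15A, the largest rises were those of RPL19, RPL31, RPL39 and RPL26. RPL19 (chr12:23029377-23034337), which forms a bridge between both subunits, had 61.5, 209.7 and 208 in untreated libraries against 9176, 8852 and 7704. Every treated library lay far above the untreated ones (log2 fold change 5.93, SE 0.43, adjusted p 2.93e-07). RPL26 (chr12:53548313-53553453), known also for binding the mRNA of p53, had 32.3, 117 and 102 against 3004, 3106 and 3628 (log2 fold change 5.45, SE 0.52). The log2 fold change of RPS15A, which rests on 1 to 3 reads in SCNT4c, was 0.15 (SE 0.41) with the assembled transcripts of the locus added. That of RPL17 turned from 4.11 (SE 0.62) to -1.01 (SE 0.53, adjusted p 0.152) in the same way.

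RPL3 (chr5:8922697-8929768), a large protein near the peptidyl transferase centre, fell in SCNT4c-TDG. It had 2664, 5114 and 8229 in SCNT4c, 1749, 1971 and 1608 in SCNT4c-TDG and 8382, 9752 and 11727 in SCNT4c-KG. The 3 SCNT4c-TDG libraries were the lowest of the 9, with a log2 fold change of -1.45 (SE 0.42, adjusted p 0.0161) against SCNT4c. This call held under 12 of 16 alternatives, with a highest adjusted p of 0.0841. RPL4, RPL7A, RPL7L1, RPL8, RPL14, RPL15, RPSA, RPS2, RPS3, RPS3A, RPS10 and RPS20 were among those that did not pass. No member rose in SCNT4c-TDG without rising in SCNT4c-KG.

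Set against each other directly, SCNT4c-TDG was lower than SCNT4c-KG for 63 of 75 members and higher for none, where 9.13% of all features were lower and 7.07% higher. The median log2 difference was -1.87 over the members and -0.02 over all features. For 71 members the libraries of both groups did not overlap, as for 44.4% of all features. RPS20 (chr4:75762209-75763449), a small subunit head protein, stood out by level: it had 195311, 163374 and 131601 in SCNT4c-KG and 9204, 9474 and 10196 in SCNT4c-TDG. The latter values are close to those of SCNT4c, which were 9402, 15317 and 12475. The log2 difference between both treatments was -4.07 (SE 0.27, adjusted p 1.32e-06). RPS25 (chr9:46237911-46242174), which some viral mRNAs need for internal initiation, had 13591, 16665 and 12963 in SCNT4c-KG and 856, 894 and 865 in SCNT4c-TDG (log2 difference -4.04, SE 0.34). RPL38 and RPLP2 differed by -3.51 (SE 0.52) and -3.49 (SE 0.41). RPL22 had the largest difference, -4.37 (SE 0.84), at low values of 255, 325 and 247 against 20.1, 14.6 and 6.12. It passed the filter through SCNT4c-KG, with means of 1.11 in SCNT4c and 7.98 in SCNT8c, so no weight is put on its rank.

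From the 4-cell to the 8-cell stage of untreated embryos, 14 of 75 members rose and none fell, against 2.62% and 3.16% of all features. Of the genes that rose, 12 belong to the large and 2, RPS3A and RPS6, to the small subunit. The median log2 fold change was 0.95 over the members and -0.31 over all features, and the libraries did not overlap for 22 members, as for 23.5% of all features. RPL26 had 482, 565 and 137 in SCNT8c against 32.3, 117 and 102 in SCNT4c (log2 fold change 2.18, SE 0.52, adjusted p 0.0313). RPL36AL (chr1:179476638-179477820), a paralog of RPL36A, had 2276, 2215 and 845.2 against 301, 601 and 484 (log2 fold change 1.87, SE 0.37, adjusted p 0.0205). RPS3A (chr8:77889616-77893740) had 28454, 40100.3 and 14827 against 5523, 9506 and 12957 (log2 fold change 1.55, SE 0.35). RPL29 and RPL9 completed the 5 largest rises, with log2 fold changes of 1.85 (SE 0.46) and 1.69 (SE 0.40). In RPL26, RPL36AL and RPS3A the third SCNT8c library was by far the lowest of its group, and it was the lowest for 72 of 75 members. The count rests on single libraries: without SCNT8c replicate 3 it was 56, of which 55 rose and 1 fell, and it was 0 without SCNT4c a, SCNT4c b, SCNT8c replicate 1 or SCNT8c replicate 2, and 3 without SCNT4c c. The calls over the whole table moved in the same way, to 32.3% of all features without SCNT8c replicate 3 and to between 0.164% and 1.23% without any 1 of the other 5 libraries.

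The donor fibroblasts were compared with SCNT4c in a fit of those 6 libraries. In the embryos 68 of 75 members were lower and 1 was higher, where 38.5% of all 19287 features were lower and 39.7% higher. The median log2 difference was -3.39 over the members and 0.07 over all features, and libraries did not overlap for 74 members, as for 84.5% of all features. RPL13 (chr6:410923-413396) had 16534, 16890.5 and 18505 in PFF and 26.0, 52.4 and 44.0 in SCNT4c (log2 difference -8.75, SE 0.27). RPS4X (chrX:58149302-58155179), the X-linked gene of protein S4, had 694, 576 and 802 in PFF and 0, 5.24 and 0 in SCNT4c. An assembled transcript lies at its locus. It passed the filter through PFF, with a mean of 1.75 in SCNT4c. The size of its log2 difference (-8.54, SE 0.76) and its rank are therefore uncertain. RPL28 (chr6:59556586-59559337) had 17231, 16691 and 18687 against 64.7, 97.9 and 49.0 (log2 difference -7.99, SE 0.26). RPL10L is listed at 0 in all 3 PFF libraries, and its mean of 141 in SCNT4c was at least 38.2-fold higher, with the floor set at 3 reads per library. RPL3L, RPL7L1, RPS3, RPS14, RPS20 and RPS25 did not pass.

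Across the embryo groups, 55 of 75 members had their group means in the order SCNT4c, SCNT8c, SCNT4c-TDG and SCNT4c-KG from low to high. The mean was highest in SCNT4c-KG for 69 members, and it exceeded that of PFF for 57 members in SCNT4c-KG and for 10 in SCNT4c-TDG.

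The levels of the genes relative to each other also differed. For this, values per kb of exon were taken from 55 members that have no assembled transcript at the locus, are not the paralog of a pair (parents such as RPL3 and RPL26 were kept) and are above 0 in PFF. The 90th percentile of these levels was 5.16 to 5.34 times the 10th in the PFF libraries. It was 47.9 to 57.5 times in SCNT4c and 43.5 to 47.5 times in SCNT8c. In SCNT4c-TDG it was 5.30 to 8.08 times and in SCNT4c-KG 7.29 to 8.54 times, so that the members were far more uneven in untreated embryos. The log2 levels of SCNT4c and SCNT8c were alike across the 55 genes (Pearson 0.97, Spearman 0.96), while SCNT4c-KG and PFF were less so (0.35 and 0.27). Genes are not independent replicates and these values are descriptions.

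Coding length went with the size of the change. Across 61 members without an assembled transcript, the Spearman correlation of coding length with the log2 fold change was -0.61 in SCNT4c-KG, -0.50 in SCNT4c-TDG and 0.20 in SCNT8c, each against SCNT4c. Over 10441 other genes it was -0.13, -0.01 and -0.16. Short genes outside the members also had higher values in SCNT4c-KG. The median log2 fold change was 1.58 over 179 genes of up to 300 coding bases and -0.34 over 3118 genes of 1501 to 3000. The same medians were 1.14 and -0.09 in SCNT4c-TDG and 0.24 and -0.16 in SCNT8c. Relative to PFF, the 24 members of up to 450 coding bases had a median ratio of 2.47 in SCNT4c-KG, where 22 were above PFF, and the 31 longer ones a median ratio of 1.01, where 16 were above. In SCNT4c-TDG both classes were below PFF, at 0.471 and 0.352. The part of amplification and fragment length in this relation was not tested.

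**Figure D4:**
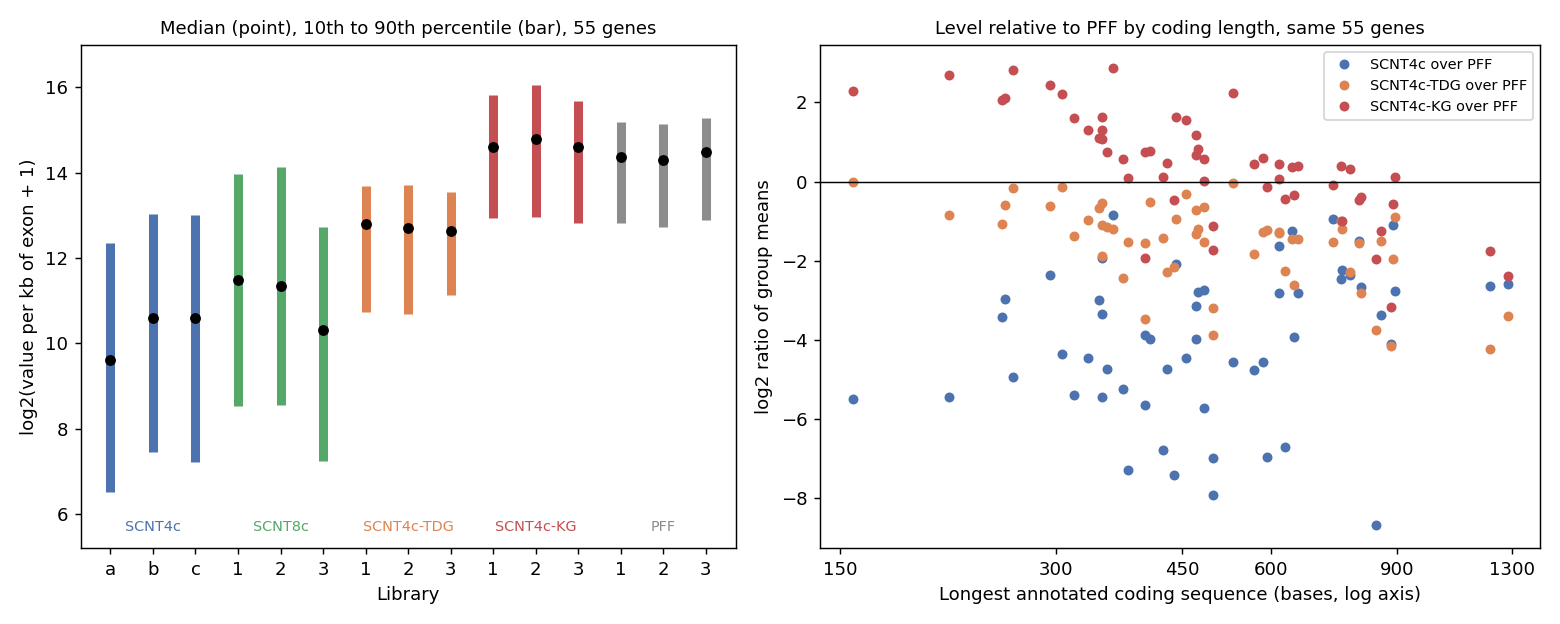
Left, the median and the 10th to 90th percentile of the log2 value per kb of exon of 55 ribosomal protein genes in each library; right, the log2 ratio of group means to PFF for each of these genes against its coding length in bases. The percentile bars are widest in SCNT4c and SCNT8c, and in SCNT4c-KG the short genes lie above PFF (22 of 24) while the longer ones scatter around it (16 of 31 above).

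Paralogs made up a larger part of their pairs in embryos than in fibroblasts for RPL26L1, RPL36AL, RPL7L1 and RPL10L. RPL26L1 (chr16:51267492-51276692) had 5.66% of the summed value of RPL26 and RPL26L1 in PFF, 76.8% in SCNT4c, 54.0% in SCNT8c, 73.7% in SCNT4c-TDG and 55.7% in SCNT4c-KG. RPL36AL had 21.5% in PFF and between 62.4% (SCNT4c-KG) and 86.5% (SCNT8c) in embryos. RPL7L1 had 11.7% in PFF and 44.6% to 55.9% in embryos. In all of these every embryo library had a higher log2 ratio of paralog to parent than every PFF library. RPS27L, a target of p53, had 31.4% in PFF, 54.6% in SCNT4c and 24.2% in SCNT4c-KG, so that SCNT4c-KG lay below PFF. RPL10L had 0% in PFF, 5.27% in SCNT4c, 1.21% in SCNT8c, 0.421% in SCNT4c-TDG and 0.0994% in SCNT4c-KG.

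The log2 ratio of RPL10L to RPL10 was -3.13, -4.37 and -4.69 in untreated libraries and -10.48, -10.33 and -9.23 in SCNT4c-KG, a mean difference of -5.95. The ratio of RPS27L to RPS27 differed by -1.96 and that of RPL26L1 to RPL26 by -1.46 between the same groups, without overlap of libraries. The ratio of RPL7L1 to RPL7 differed by -0.08 with overlapping libraries. Each p was 0.1 where libraries did not overlap (two-sided exact permutation test, 3 against 3 libraries), the smallest this design allows, and 0.6 for RPL7L1. RPL22L1 exceeded RPL22 in every library, but RPL22 has an assembled transcript at its locus. RPL3L was at most 0.367% of its pair in any group.

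**Figure D5:**
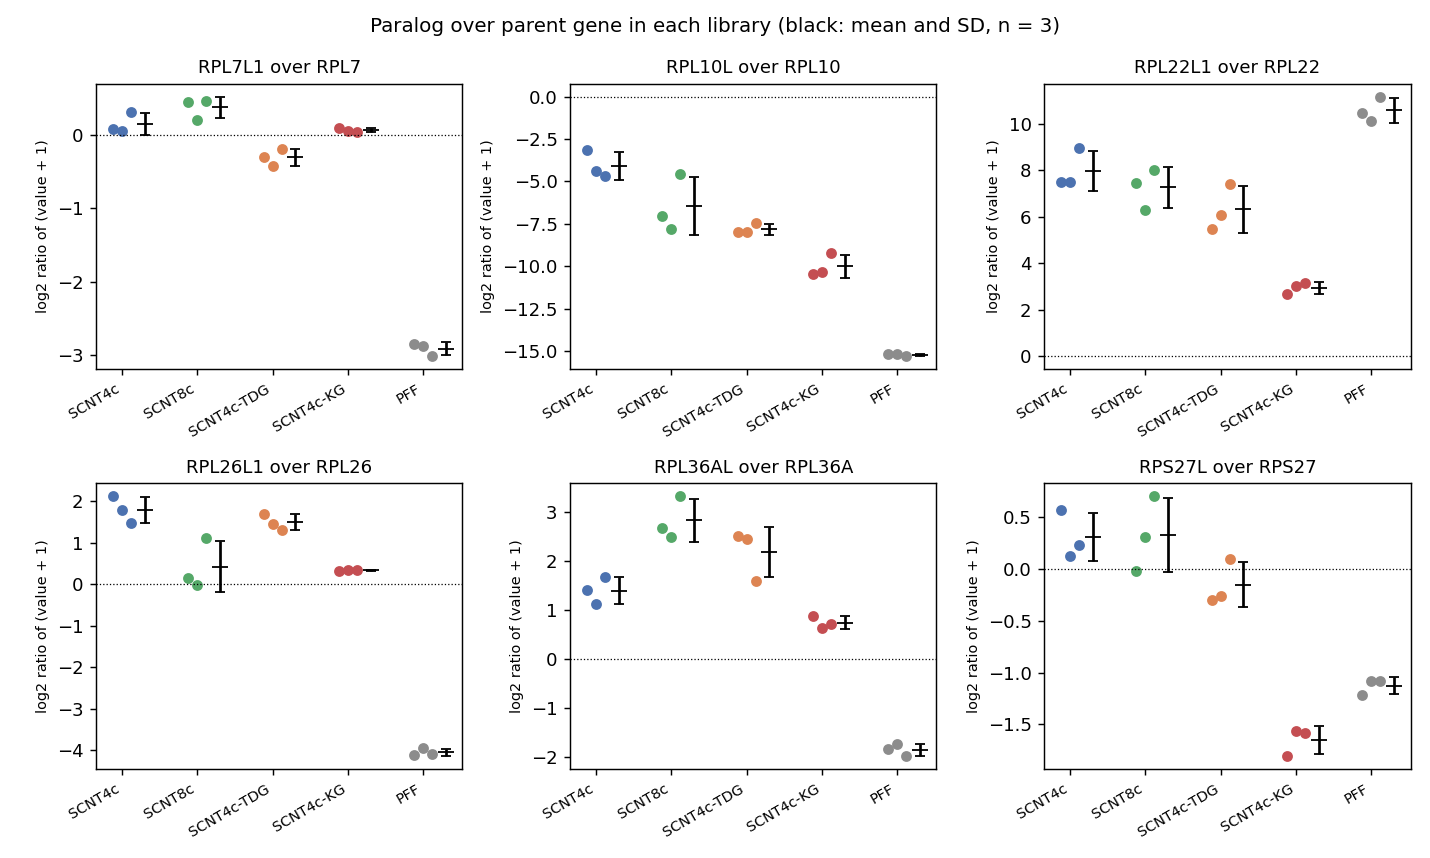
log2 ratio of paralog to parent, each as value + 1, in each library for 6 pairs; coloured points are libraries and black marks the mean with its SD (n = 3), and the dotted line marks equal values. PFF lies below all embryo libraries for RPL7L1, RPL10L, RPL26L1 and RPL36AL, and SCNT4c-KG lies lowest for RPS27L.

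Tested members with a pyrimidine tract by the rule above had a median log2 fold change of 5.06 in SCNT4c-KG (39 genes) and those without one 4.41 (36 genes). Of 22 other genes with TOP mRNAs in a list of translation factors, 17 could be tested, and 9 rose and 1 fell in SCNT4c-KG, with a median log2 fold change of 1.40, beside 17.6% and 19.6% of all features and their median of -0.30. In SCNT4c-TDG 6 of them rose and 4 fell, with a median of -0.17, beside 15.7% and 17.6% and a median of -0.26. In SCNT8c none passed. EEF1D and EEF2, counted as rises in SCNT4c-KG, had means of 4.42 and 0.859 in SCNT4c. They passed the filter through SCNT4c-KG, where their means were 33.9 and 72.4, and EEF2 is also counted as a rise in SCNT4c-TDG. TPT1, which encodes the translationally controlled tumour protein, rose from a mean of 24.98 ± 8.98 (SD, n = 3) in SCNT4c to 4241 ± 651 in SCNT4c-KG. FAU, whose product is cleaved to the small subunit protein S30, rose from 747 ± 67.1 to 5610 ± 826. BTF3, a subunit of the nascent polypeptide-associated complex, fell from 127401 ± 6509 to 51564 ± 4388.

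Of 21 regulators of ribosomal protein mRNAs and assembly chaperones, 15 could be tested. In SCNT4c-KG 4 rose (YY1, LARP1, GRWD1 and TSR2) and 2 fell (MAX and MTOR), which is 26.7% and 13.3% of those tested beside 17.6% and 19.6% of all features. In SCNT4c-TDG 5 rose (YY1, GABPA, LARP4, GRWD1 and MDM2) and 2 fell (MAX and AATF), 33.3% and 13.3% beside 15.7% and 17.6%. In SCNT8c none passed. GRWD1, TSR2 and MDM2 had means below 10 in SCNT4c, at 5.84, 6.48 and 2.24. They passed the filter through groups where they are higher, so these shares are not read against those of all features. GRWD1, the chaperone of RPL3, rose from 5.84 ± 3.03 in SCNT4c to 275 ± 147 in SCNT4c-KG. MTOR fell from 336 ± 111 to 137 ± 103 (log2 fold change -1.48, SE 0.55, adjusted p 0.0448).

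The table also holds 21 loci without a ribosomal protein symbol whose annotated product is a ribosomal protein. In 7 of them the mean reached 10 in some group, for some of these in SCNT4c-KG alone, so that no direction is read from the 7. The highest values were those of an S27-like locus with a mean of 961 in SCNT4c-KG and 4.35 in SCNT4c, an L35a locus with 875 and 8.57 and an L39 locus with 729 and 2.55. Such near-identical copies can share reads with RPS27, RPL35A and RPL39, and reads that mapped to more than 1 place were dropped before counting, so the split between copy and gene is uncertain.

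As a check of the labels, including the conflict in those of SCNT4c-KG, TDG had means of 1713 in SCNT4c, 4366 in SCNT4c-KG and 55575 in SCNT4c-TDG, and KDM4A had 194, 1448 and 775. Fibroblast markers summed to 3504570 to 3769630 in PFF libraries and were lower in the treated than in the untreated 4-cell libraries, at 3709 to 4840 in SCNT4c, 1218 to 2048 in SCNT4c-KG, 979 to 1226 in SCNT4c-TDG and 1535 to 1864 in SCNT8c. Cumulus cell markers summed to 1354 to 1827, 773 to 911, 516 to 640 and 1316 to 1921 in the same order of groups. Oocyte markers summed to 74606 to 93563, 48139 to 73049, 48249 to 49246 and 39313 to 49394, although BMP15, GDF9 and MOS were at 0 in every embryo group. The sums of all 3 lists thus lay higher in every SCNT4c library than in every SCNT4c-KG or SCNT4c-TDG library, opposite to most ribosomal protein genes, and their part in the differences above was not tested.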

How the data were processed

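RNA was measured by sequencing of amplified cDNA (SMARTer kit) in 15 libraries, 3 in each of 5 groups taken from the labels. The authors trimmed reads with Trimmomatic 0.39, aligned them with STAR 2.5.3a to Sscrofa11.1 and kept reads that mapped to a single place, assembled transcripts with StringTie 2.1.2 and counted with HTSeq (tools and versions from the submitters' processing notes, which give none for HTSeq). The deposited values are a normalized signal, gene counts divided by 1 factor per library, and the source of the factor is not given in the sources used here. The strand setting of the counting is not given in the sources used here. Of 43535 entries, 241 repeats were removed. Whole reads were recovered for 100% of values within 0.02 reads, 12354649 to 22868038 per library, and counting error is smallest for genes with many reads.

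Values were tested as log2(value + 1) with limma 3.58.1 (R 4.3.3), with an intensity trend, on features with a mean of at least 10, with Benjamini-Hochberg adjustment over all features. The pseudocount understates changes of low genes. Changed means an adjusted p under 0.05 and a fold above 2. The 12 embryo libraries were fitted together, and SCNT4c with PFF alone. Alternatives included edgeR 4.0.16 and DESeq2 1.42.0 on the recovered reads, other scalings, filters and pseudocounts, and leaving out each library. One alternative, only members with no assembled transcript at the locus, was chosen after seeing the data. Scripts used Python 3.11.15 with scipy 1.17.1 and were tested on simulated data.

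Values are given for the 5 largest rises and 5 largest falls of each embryo comparison, all paralog pairs, members with set roles, the 5 highest and 5 lowest members per kb in SCNT4c and members at 0 throughout. The translation factors and regulators with values, RPL17 and lists of members that did not pass, were named after their values were seen. The members and lists were chosen with earlier results of these data known. Replicate numbers do not pair the libraries: deviations of same-numbered libraries correlated between -0.061 and 0.195. Values of 1 member are counted in the totals but not reported here or drawn gene by gene.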

Additional observations from a re-analysis of the deposited data

How the results depend on the processing

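The count of changed members in SCNT8c against SCNT4c (14) depended on the processing: it was 7 with all features above 0 tested, 43 with DESeq2, 20 with edgeR and 0 with those groups fitted alone, where 1.67%, 14.4%, 4.45% and 0% of all features were called, against 5.79% in the fit as reported. Leaving out 1 library gave 0 to 56. In the other comparisons leaving out 1 library gave counts of 68 to 71 (SCNT4c-KG against SCNT4c) and 57 to 61 (SCNT4c-TDG against SCNT4c). Of all features, 28.9% to 33.1% and 23.7% to 27.7% were called in those fits. The counts were 47 to 56 for SCNT4c-TDG against SCNT4c-KG and 69 to 72 for SCNT4c against PFF. There, 9.45% to 13.3% and 73.6% to 79.5% of all features were called. The median of SCNT4c-TDG against SCNT4c-KG (-1.87) was -1.41 after quantile normalization and -1.51 with libraries scaled to the same total, and that of SCNT4c against PFF (-3.39) was -2.79 with the same total, which also moved the median of all features by 0.36 and 0.85. The latter median was -2.59 with edgeR and -2.55 with DESeq2, which moved that of all features by 0.90 and 0.94. The ribosomal protein share of SCNT4c-TDG (2.57%) was 2.82% without mitochondrial genes in the total. The causes were not tested beyond these settings. With the replicate number as a block, 67 members differed between SCNT4c-TDG and SCNT4c-KG, as in the fit of those groups alone. Of all features, 26.5% were called with the block and 27.5% with those groups alone, against 16.2% in the fit as reported. No count, median or share reversed, but with assembled transcripts added to their genes RPL17 turned from 4.11 to -1.01 in SCNT4c-TDG against SCNT4c and from -4.74 to 0.27 in SCNT4c against PFF, and RPS15A from -4.49 to 1.69 in the latter. Of the values for named genes over all alternatives 1736 stayed on their side of the threshold, 130 lost a call and 31 gained one. Low counts limit RPS15A, RPL17, RPL22 and the members near 0.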
